A study of Mus musculus with 8 samples.

Results

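The genes described here are 32 mouse genes of the hypoxia response and of glycolysis, measured by RNA sequencing in whole colon. They were found by matching gene symbols to the Ensembl identifiers of the deposited count table through GENCODE M21, the mm10 (GRCm38) annotation. All 32 symbols were found among the 52636 identifiers, and all 32 were among the 16107 genes with enough counts to be tested. Of them, 15 form the HIF pathway class, made of the regulator, its oxygen sensors and targets that are not glycolytic enzymes. The other 17 form the glycolysis class, with glucose transporters, glycolytic enzymes and a kinase that gates pyruvate. Aldoa stood on 2 identifiers; the one used here held 242387 counts over the libraries and the other 18.

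Colon was taken on day 30 from wild-type C57BL/6 female mice, 6 weeks old at the start as far as the labels say, that were germ-free and kept in gnotobiotic isolators. The labels give 2 libraries from mice colonized by mouth with C. tropicalis MYA-3404, 3 from mice colonized with C. albicans SC5314, both of them yeasts, and 3 from control mice. The series' design text names both yeasts together and can be read as giving both to the same mice; the groups here follow the single species on each library's label. What the controls received is not stated in the sources used here. Replicates carry numbers, and nothing says which are separate animals, so each p-value speaks of variation among the 8 libraries, part of which may be technical. Each library was made from a piece of whole colon, so fewer cells of a type and less RNA per cell cannot be told apart.

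Cells sense oxygen through HIF-1, a transcription factor whose alpha subunit, encoded by Hif1a, is hydroxylated by prolyl hydroxylases when oxygen is present and is then degraded. This control acts on the protein, so the Hif1a transcript is not itself a measure of HIF activity. When oxygen is low, HIF-1 binds a short core motif near genes for angiogenesis, mitophagy, collagen modification, glucose uptake and glycolysis. The colon epithelium is known to live at low oxygen next to the lumen, and bacterial butyrate, which germ-free mice lack, is known to deepen that state.

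The 5 stretches that follow are the 250 bases before the RefSeq start (GRCm38.p6) of genes on which the results turn: the regulator Hif1a, the collagen enzyme gene P4ha1, 2 glycolytic enzyme genes, and Mxi1, whose level stood apart in C. tropicalis colon. They are at chr12:73907617-73907866 on the plus strand, chr10:59323046-59323295 on the plus strand, chrX:106186850-106187099 on the plus strand, chr7:46845554-46845803 on the plus strand and chr19:53310256-53310505 on the plus strand. Capitals mark the hypoxia response core, searched as ACGTG or GCGTG on both strands, so that CACGT and CACGC are its reverse forms. Where the capitals read CACGTG, the core lies inside the E-box that clock and MYC-family factors also read.
Hif1a: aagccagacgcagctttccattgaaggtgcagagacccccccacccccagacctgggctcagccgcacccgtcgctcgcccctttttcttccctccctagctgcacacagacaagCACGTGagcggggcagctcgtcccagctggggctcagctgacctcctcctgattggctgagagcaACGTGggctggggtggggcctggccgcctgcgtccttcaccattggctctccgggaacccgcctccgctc
P4ha1: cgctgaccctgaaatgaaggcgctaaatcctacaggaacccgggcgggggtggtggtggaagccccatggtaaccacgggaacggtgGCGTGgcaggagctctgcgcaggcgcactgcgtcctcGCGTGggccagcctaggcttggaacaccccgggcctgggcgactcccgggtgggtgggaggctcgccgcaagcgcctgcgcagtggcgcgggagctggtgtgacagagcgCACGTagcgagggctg
Pgk1: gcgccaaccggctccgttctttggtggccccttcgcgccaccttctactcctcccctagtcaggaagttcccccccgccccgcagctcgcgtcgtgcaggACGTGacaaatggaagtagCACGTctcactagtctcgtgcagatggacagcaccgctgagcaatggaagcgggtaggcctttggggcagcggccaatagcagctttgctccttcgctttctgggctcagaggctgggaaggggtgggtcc
Ldha: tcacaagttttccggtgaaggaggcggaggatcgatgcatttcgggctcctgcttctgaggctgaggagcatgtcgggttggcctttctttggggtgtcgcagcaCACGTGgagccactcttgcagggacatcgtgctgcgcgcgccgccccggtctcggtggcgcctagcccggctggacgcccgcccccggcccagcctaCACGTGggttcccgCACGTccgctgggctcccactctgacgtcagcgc
Mxi1: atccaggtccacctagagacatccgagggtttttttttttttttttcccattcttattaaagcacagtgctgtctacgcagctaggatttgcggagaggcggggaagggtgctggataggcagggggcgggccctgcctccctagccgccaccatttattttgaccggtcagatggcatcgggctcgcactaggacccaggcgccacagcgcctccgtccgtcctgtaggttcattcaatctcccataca

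Hif1a and Pgk1 held the core at 2 places each, P4ha1 and Ldha at 3 places each, and Mxi1, read at the first of its 3 listed starts, at none. Of the 29 members with a RefSeq promoter, 24 (82.8%) held at least 1 core, against 10430 of 27018 promoters (38.6%) in all and 6448 of 11862 (54.4%) for genes that were tested. The core contains a CpG, and the members' promoters had a median GC content of 62.8%, against 59.6% for tested genes, so base composition moves with the count; its part was not tested. The shares were 11 of 13 in the HIF pathway class and 13 of 16 in the glycolysis class. Ndrg1, Bnip3l and Slc2a3 are named only. A match is a description of letters, not evidence of binding.

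The libraries held 16195376 to 19761098 counts, and levels are given as CPM, counts scaled to library size with TMM factors. The floor set by a count of 0 is 3 counts, equal to 0.152 to 0.185 CPM depending on the library and covering counting error only. Every member lay above it in all 8 libraries. All 9 colon epithelium markers and all 8 smooth muscle markers were detected. The 9 epithelium markers summed to 19526 and 16782 CPM in C. tropicalis colon and 16506 to 20507 CPM in C. albicans colon. The control sums were 13812 to 16397 CPM, below every colonized library. Krt8 was the largest of the 9 markers in every library. It stood at 8436 and 6790 CPM with C. tropicalis, 6292 to 7970 with C. albicans and 5463 to 6362 in controls. Of the 9, 6 were above control with C. albicans and 4 with C. tropicalis. Car1 stood at 2231 and 2255 CPM with C. tropicalis, 180 to 432 with C. albicans and 243, 388 and 1602 in controls. Their part in member differences was not tested. The 8 smooth muscle markers summed to 3771 and 4803 CPM in C. tropicalis colon, 9661 to 27845 CPM in C. albicans colon and 6631 to 12952 CPM in control colon. No marker passed the test in any comparison. The smooth muscle sums of C. tropicalis lay below all others, and those of C. albicans and control overlapped. The 6 B cell markers ranged from 55.7 to 79.4, from 10.3 to 54.7 and from 15.4 to 222 CPM in the same order of groups. Adipocyte, endothelial, erythroid, skeletal muscle and phagocyte markers summed to at most 142 CPM in any library, and Myh4 of skeletal muscle was at 0 in all 8.

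Per kilobase of merged exons, a rough scale for comparing different genes, glycolytic enzymes led. The merged length joins all annotated exons of a gene, 4133 bases for Gapdh and 13401 for Pfkp. It can exceed the transcripts present, so the order and the isozyme shares are approximate. Gapdh averaged 634 CPM per kilobase over the 8 libraries (range 485 to 753), Aldoa 591 (477 to 697), Ldha 580.3 (423 to 768) and Pkm 377 (285 to 466), and the ranges of neighbouring genes in this order overlapped. Pgk1, Eno1 and Pgam1 followed at 226, 218 and 214 CPM per kilobase. Slc2a1, the transporter GLUT1, stood at 76.8 CPM per kilobase (51.4 to 104), and the hexokinase gene Hk1 at 69.5 (47.6 to 90.6). Vegfa led the HIF pathway class at 43.6 CPM per kilobase (29.5 to 69.3), ahead of the prolyl hydroxylase genes Egln3 at 40.5 and Egln1 at 29.3. Hif1a itself stood at 9.28 CPM per kilobase (6.05 to 13.0). The lowest were Pfkfb3, a producer of the glycolytic activator fructose 2,6-bisphosphate, at 1.54 and Slc2a3, the transporter GLUT3, at 0.882.

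**Figure D1:**
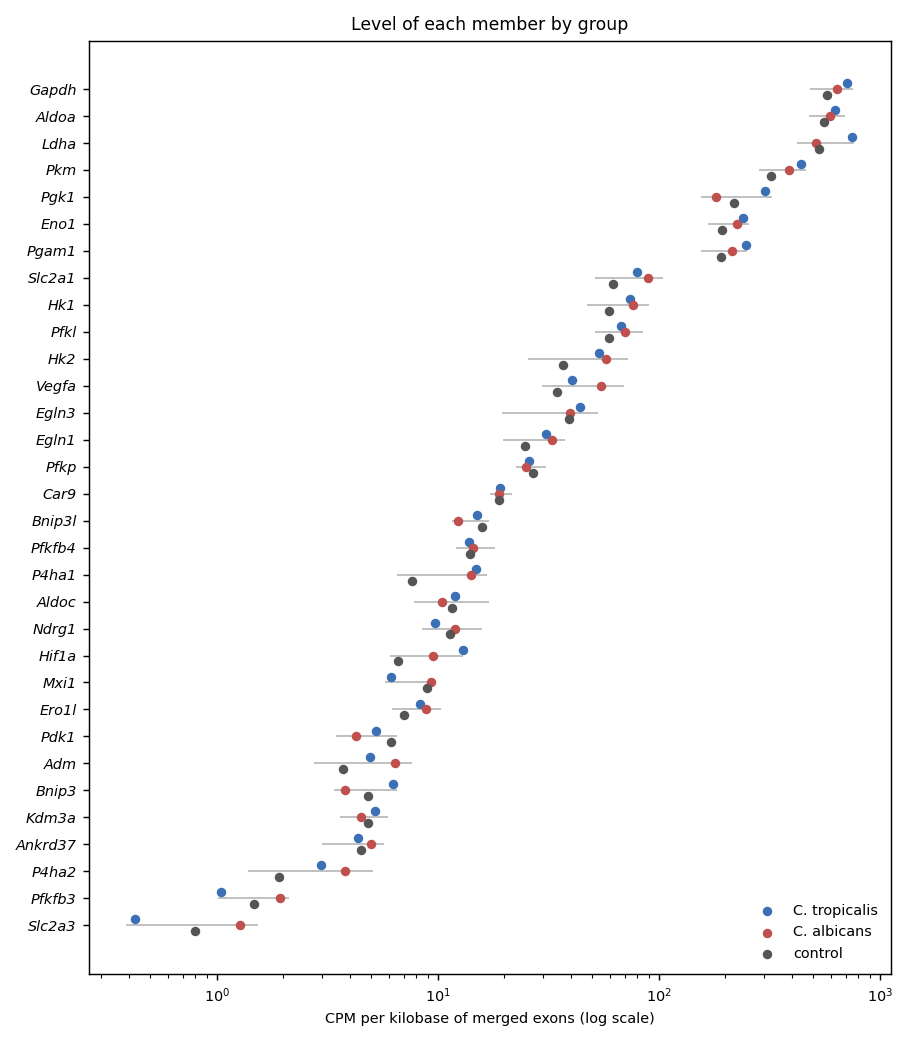
Level of each of the 32 members in CPM per kilobase of merged exons, on a log axis, ordered by the mean over the 8 libraries. Points are group means, grey lines run from the lowest to the highest library, and the members extend from 0.882 for Slc2a3 to 634 for Gapdh.

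Among isozymes, counted per kilobase, the member genes held most of the signal of several steps and little of others. Ldha made up 96.55% of the summed LDH level, Pgam1 93.74% of the mutase level with Pgam2 and Bpgm, Pkm 91.74% of pyruvate kinase with the liver gene Pklr, and Aldoa 89.99% of aldolase. Eno1 made up 66.53% of enolase per kilobase, while without the length divisor it averaged 1172 CPM against 186 for Eno3. Eno3, known as the muscle enolase, held 32.73% and ranged from 24.5 to 193 CPM per kilobase between libraries. It was highest in C. tropicalis 1 and 2, at 286 and 335 CPM, and lowest in C. albicans 2, at 42.6 CPM. The smooth muscle markers of these libraries summed to 3771, 4803 and 27845 CPM. Pfkfb3 was 8.95% of its family, in which Pfkfb4 held 82.10%. Pdk1, a kinase that inhibits pyruvate dehydrogenase, was 8.79% of the PDK family, in which Pdk2 held 78.92%. Hif1a was 21.16% of the HIF alpha subunits, against 74.17% for Epas1, which encodes HIF-2 alpha. Slc2a1 made up 86.31% of the 5 glucose and fructose transporters counted.

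No member passed the threshold of 0.05 on the Benjamini-Hochberg adjusted p in edgeR's quasi-likelihood test, in any of the 3 comparisons. Over all genes 5 (0.031%) passed with C. tropicalis, 0.0248% higher and 0.00621% lower. With C. albicans 7 (0.0435%) passed, 0.0373% higher and 0.00621% lower, and between the species 0 (0%). The smallest adjusted p of a member was 0.0645 for Hif1a with C. tropicalis, 0.128 for P4ha1 with C. albicans and 0.0646 for Slc2a3 and Pfkfb3 between the species. DESeq2 called 3 members with C. tropicalis, 4 with C. albicans and 5 between the species, beside 393, 461 and 1737 genes in all, and limma-voom called 0 members in each. The values that follow are therefore levels and fold changes whose calls depend on the tool, and both colonized groups are set against the same 3 controls.

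Hif1a, the regulator, lay in 3 separate ranges. It stood at 76.2 and 76.7 CPM in C. tropicalis colon, at 59.1, 51.9 and 56.7 CPM in C. albicans colon, and at 35.7, 41.3 and 40.1 CPM in control colon. No library of one group entered the range of another. Over all genes, 16% lay wholly above control with C. tropicalis and 9.82% with C. albicans. Between the species 23.4% lay wholly higher with C. tropicalis, and the share that meets all 3 was not counted. Against control the log2 fold change of Hif1a was 0.97 ± 0.12 (SE, 1.96-fold, adjusted p = 0.0645 by edgeR) with C. tropicalis and 0.52 ± 0.11 (1.43-fold, adjusted p = 0.150) with C. albicans. Between the species it was 0.45 ± 0.12 (adjusted p = 0.0829), and 0.22 (adjusted p = 0.845) once a smooth muscle score from the 8 markers entered the fit (the smooth muscle covariate). The C. tropicalis difference passed without control 3 (adjusted p = 0.0228) and with DESeq2 (adjusted p = 1.07e-07). In 1 of the 18 alternative fits listed below the C. albicans difference passed too. The one between the species passed with DESeq2. An antisense gene, Gm15283, shares 330 exon bases with Hif1a and held 223 counts against 7721; the library kit does not mark strand, so their reads cannot be fully separated. The oxygen sensor genes did not form 3 such steps. Egln1 stood at 120.1 and 101 CPM in C. tropicalis colon and at 99.2, 119.8 and 135 CPM in C. albicans colon. In control colon it stood at 71.2, 97.0 and 98.0 CPM. Its colonized libraries all lay above the controls, the closest at 99.2 against 98.0 CPM, and the colonized groups overlapped. The log2 fold change of Egln1 for C. albicans was 0.41 ± 0.17 (adjusted p = 0.307 by edgeR). Egln3 varied within every group, from 51.8 to 135 CPM among the controls alone.

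Of the collagen enzyme genes, P4ha1 had the second smallest p among the members with C. tropicalis and the smallest with C. albicans. P4ha1 encodes the catalytic subunit of a prolyl 4-hydroxylase that stabilizes collagen helices. It stood at 68.5 and 53.4 CPM in C. tropicalis colon, at 49.7, 60.8 and 63.3 CPM in C. albicans colon, and at 29.0, 38.5 and 26.9 CPM in control colon. Every colonized library lay above every control, and the colonized groups overlapped. The log2 fold change was 0.95 ± 0.19 with C. tropicalis (1.94-fold, adjusted p = 0.137) and 0.88 ± 0.18 with C. albicans (1.84-fold, adjusted p = 0.128). The C. albicans difference passed without C. albicans 1 (adjusted p = 0.0442) and with DESeq2 (adjusted p = 0.00166), and the C. tropicalis one with DESeq2 (adjusted p = 0.00354). Between the species P4ha1 differed by a log2 of 0.07, with a 95% interval from -0.36 to 0.51. P4ha2, its paralogous subunit, stood at 21.8 and 15.0 CPM in C. tropicalis colon, at 15.6, 31.9 and 23.8 CPM in C. albicans colon, and at 13.5, 13.6 and 8.66 CPM in control colon. The C. albicans log2 fold change was 0.99 ± 0.29 (adjusted p = 0.231), and 0.53 (adjusted p = 0.452) with the smooth muscle covariate. This difference of P4ha2 passed in 1 of the 18 alternative fits. Ero1l, an oxidase that supplies disulfide bonds in the endoplasmic reticulum, ranged from 32.8 to 54.6 CPM over all 8 libraries.

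**Figure D2:**
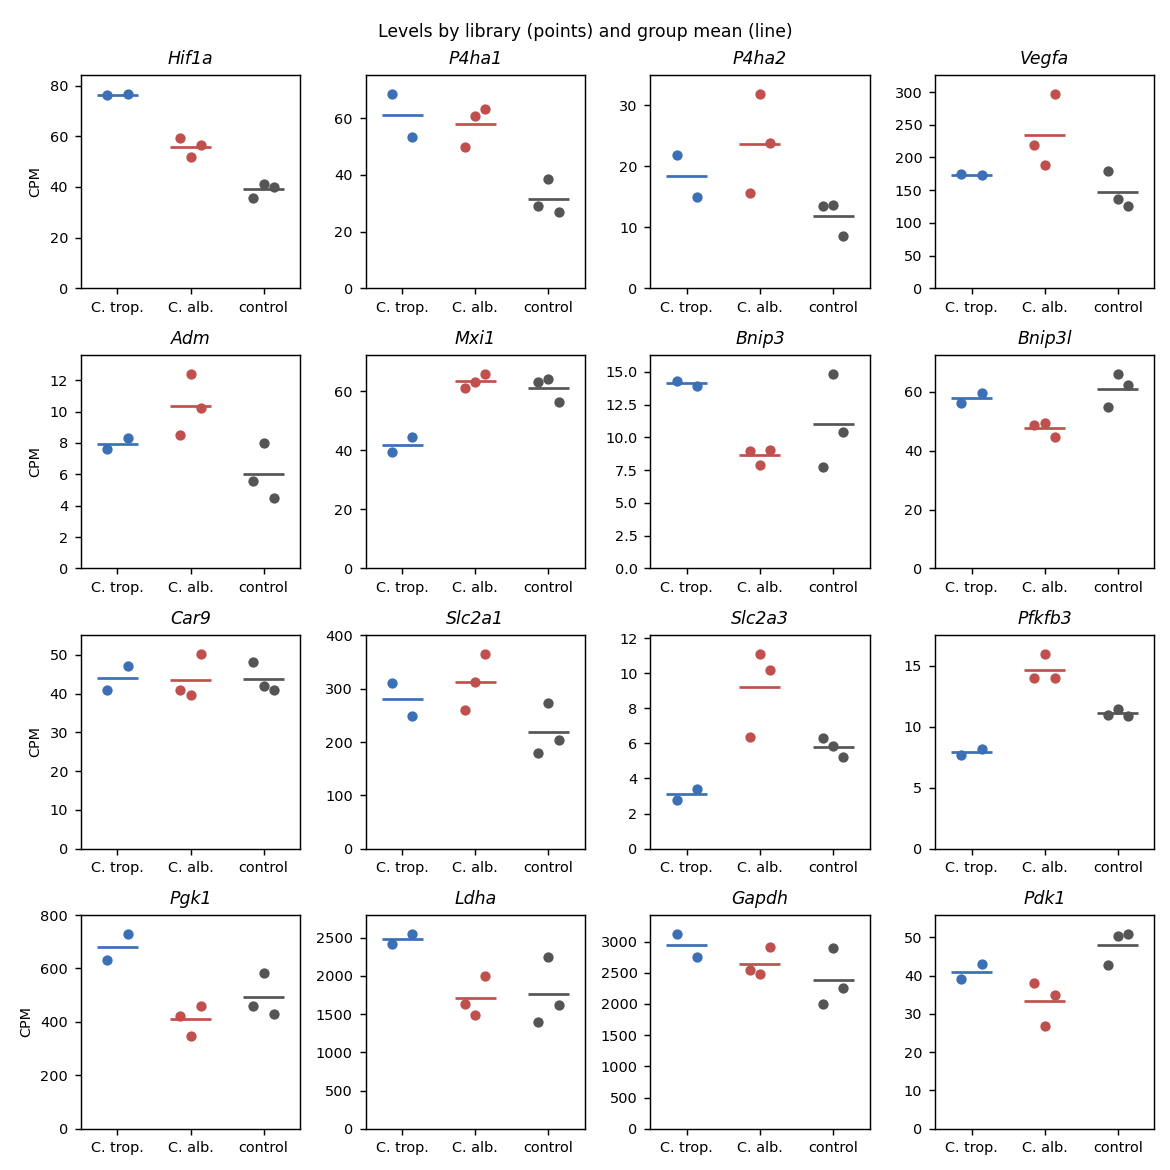
Level of 16 members in CPM (linear axes from 0), 1 point per library, with a line at the mean of the 2 C. tropicalis, 3 C. albicans and 3 control libraries. Hif1a forms 3 separate ranges, P4ha1 lies above control in every colonized library, and the Car9 group means lie between 43.6 and 44.0 CPM.

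With C. albicans, 12 of the 32 members had an unadjusted p under 0.05, 10 above control and 2 below, where 15.4% of all genes had one, 9.13% above and 6.31% below. In 10 members the 3 C. albicans libraries all lay on one side of the 3 controls, 8 above and 2 below, against 19.4% of all genes, 9.82% above and 9.57% below. The median log2 fold change of the 32 was 0.16, against -0.02 over all genes. A positive one was held by 23 (71.9%), against 48.2% of all genes. The median is about the spread between libraries of one group (SD 0.15 for the median), and control 2 had a higher median over the members than C. albicans 1 and 2. Leaving out control 2 gave the highest median, 0.33, and leaving out C. albicans 1 gave 0.27, while another omission lowered it. The full range is given at the end. By class the median with all libraries was 0.15 for the HIF pathway and 0.17 for glycolysis. The genes were chosen with earlier results of these data known, so these counts are a description of the list.

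The angiogenic and vasodilator genes of the HIF class had their highest group mean in C. albicans colon. Vegfa, the main growth factor of blood vessels, stood at 218, 189 and 297 CPM in C. albicans colon, against 179.8, 137 and 126 CPM in control colon. All 3 C. albicans libraries lay above the controls, with a log2 fold change of 0.67 ± 0.20 (adjusted p = 0.231 by edgeR, 0.0390 by DESeq2). Adm, which encodes the vasodilator peptide adrenomedullin, stood at 8.49, 12.4 and 10.2 CPM in C. albicans colon and 5.60, 7.98 and 4.46 CPM in control colon. With C. albicans the log2 fold change was 0.79 ± 0.25 (adjusted p = 0.247), and 0.50 with the smooth muscle covariate (adjusted p = 0.484). In C. tropicalis colon Vegfa stood at 175 and 173 CPM and Adm at 7.59 and 8.33 CPM, each inside the range of the controls or across its upper end. The summed endothelial markers ranged from 121 to 142 CPM in C. albicans colon and from 103 to 126 CPM in control colon; their part was not tested.

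Glucose uptake and hexokinase genes also stood higher on average with C. albicans, as did Slc2a1 and Hk2 with C. tropicalis. Slc2a1 was measured at 259, 313 and 365 CPM in C. albicans colon, against 180.2, 272 and 203 CPM in control colon, with control 2 inside the C. albicans range. The log2 fold change was 0.51 ± 0.20 (adjusted p = 0.282). Hk2, the inducible hexokinase, stood at 319, 281 and 432 CPM in C. albicans colon and at 226, 284 and 152 CPM in control colon (log2 0.64 ± 0.26, adjusted p = 0.300). In C. tropicalis colon Slc2a1 stood at 311 and 249.6 CPM and Hk2 at 380.1 and 258 CPM, again overlapping the controls. The C. tropicalis means of 280 and 319 CPM lay above the control means of 219 and 221 CPM. Both genes overlapped between the species. Hk1, Pfkl, Pfkp, Pfkfb4, Aldoa, Aldoc, Pgam1, Eno1, Gapdh and Kdm3a each had an unadjusted p above 0.05 in all 3 comparisons.

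On the lower side with C. albicans were Pdk1 and Bnip3l. Pdk1, a HIF target that phosphorylates and stops pyruvate dehydrogenase, stood at 38.1, 26.8 and 35.0 CPM in C. albicans colon, against 42.7, 50.5 and 50.8 CPM in control colon. Relative to control it was -0.53 ± 0.15 on the log2 scale (adjusted p = 0.229), and -0.34 with the smooth muscle covariate (adjusted p = 0.434). Bnip3l, a receptor for the removal of mitochondria, stood at 48.8, 49.6 and 44.7 CPM in C. albicans colon and at 54.8, 66.0 and 62.4 CPM in control colon (log2 -0.36 ± 0.12, adjusted p = 0.247). In C. tropicalis colon Pdk1 stood at 39.0 and 43.0 CPM and Bnip3l at 56.4 and 59.4 CPM, overlapping the controls in both genes.

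Car9, Ndrg1 and Ankrd37, known as hypoxia markers, had no unadjusted p under 0.05 in any comparison. Car9, a carbonic anhydrase that acts in pH control, stood at 40.9 and 47.2 CPM in C. tropicalis colon. Its levels were 40.9, 39.7 and 50.1 CPM in C. albicans colon and 48.2, 42.0 and 41.0 CPM in control colon. Its log2 difference from control had a 95% interval from -0.33 to 0.35 with C. tropicalis and from -0.31 to 0.30 with C. albicans. Gm12454, an antisense gene, shares 214 exon bases with Car9 and held 860 counts against 6166. Ndrg1 and Ankrd37 ranged from 55.8 to 105 CPM and from 4.63 to 8.78 CPM over the 8 libraries. Ndrg1 stood at 61.8 and 65.9 CPM in C. tropicalis colon, below the controls at 84.1, 68.4 and 72.3 CPM, while Ankrd37 and Car9 overlapped in every comparison. Ankrd37 shares 57 exon bases with Ufsp2, which held 3670 counts against 1010.

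With C. tropicalis, 7 members had an unadjusted p under 0.05, 4 above control and 3 below, where 15.4% of all genes had one, 7.33% above and 8.05% below. In 13 members both C. tropicalis libraries lay outside the controls, 9 above and 4 below, against 32.5% of all genes, 16% above and 16.5% below. The median log2 fold change of the 32 was 0.24, against -0.02 over all genes. It was 0.40 without control 2, the highest value with a library left out, while another omission lowered it. The 6 genes of lower glycolysis had log2 fold changes from 0.30 to 0.50 with a median of 0.41, where 47.9% of all genes had one above 0. In 4 of the 6 both C. tropicalis libraries stood above all controls, 2 had an unadjusted p under 0.05, and none passed after adjustment.

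In that group Pgk1, the enzyme that makes the first ATP of the pathway, stood at 631 and 727 CPM in C. tropicalis colon, against 461, 584 and 429 CPM in control colon. Both C. tropicalis libraries were higher than all controls, with a log2 fold change of 0.47 ± 0.19 (adjusted p = 0.295). Pkm, pyruvate kinase, stood at 2329.8 and 2072 CPM in C. tropicalis colon and at 1454, 1971 and 1426 CPM in control colon (log2 0.44 ± 0.20, adjusted p = 0.325). Gm49759, on the same strand, shares 767 exon bases with Pkm and held 4087 counts against 265195. Ldha, which turns pyruvate into lactate, stood at 2422 and 2543 CPM in C. tropicalis colon and at 1402, 2253 and 1619.8 CPM in control colon. Control 2 had the highest level of Pgk1, Ldha, Pkm, Aldoa and Gapdh among the controls. Gapdh stood at 3114 and 2759.7 CPM in C. tropicalis colon, at 2539, 2479 and 2914 CPM in C. albicans colon and at 2004, 2896 and 2261 CPM in control colon. Processed copies that carry the names of Gapdh, Ldha, Pgk1 and Pgam1 held at most 118 counts each.

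**Figure D3:**
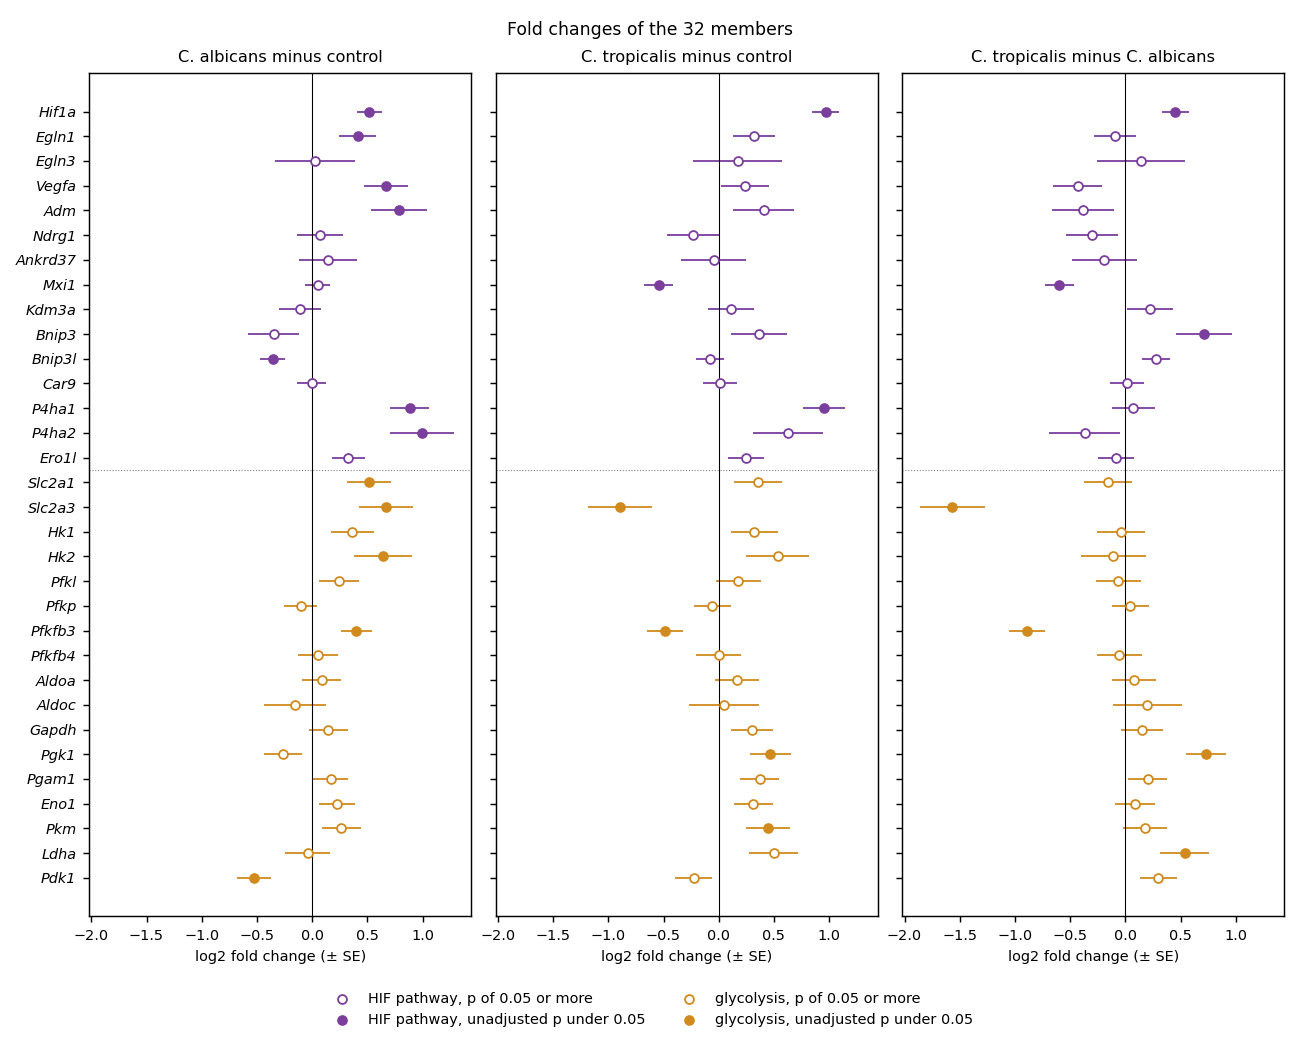
Log2 fold change of each member with its standard error in the 3 comparisons; the dotted line separates the 15 HIF pathway genes from the 17 genes of glycolysis. Filled points have an unadjusted p under 0.05, and no member passed after adjustment.

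Slc2a3, Pfkfb3 and Mxi1 stood lower in both C. tropicalis libraries than in every library of the other groups. Over all genes, 16.5% lay wholly below control and 22.4% wholly below C. albicans, and the share that meets both was not counted. Slc2a3, the high-affinity glucose transporter of neurons and leukocytes, stood at 2.80 and 3.40 CPM in C. tropicalis colon, at 6.35, 11.1 and 10.2 CPM in C. albicans colon, and at 6.28, 5.84 and 5.22 CPM in control colon. Against control its log2 fold change was -0.90 ± 0.29 with C. tropicalis (adjusted p = 0.250) and 0.67 ± 0.25 with C. albicans (adjusted p = 0.272). Pfkfb3 had the same order, at 7.65 and 8.16 CPM in C. tropicalis colon, 14.0, 16.0 and 14.0 CPM in C. albicans colon and 11.0, 11.4 and 10.9 CPM in control colon. Its log2 fold change against control was -0.49 ± 0.16 with C. tropicalis (adjusted p = 0.258) and 0.40 ± 0.14 with C. albicans (adjusted p = 0.265). Mxi1, a repressor that opposes MYC and is a HIF target, stood at 39.3 and 44.5 CPM in C. tropicalis colon, 61.1, 63.2 and 65.7 CPM in C. albicans colon and 62.9, 64.2 and 56.3 CPM in control colon. It was -0.55 ± 0.13 against control with C. tropicalis (log2, adjusted p = 0.168 by edgeR, 0.0124 by DESeq2).

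Between the species 7 members had an unadjusted p under 0.05, 4 higher with C. tropicalis and 3 lower, where 23.2% of all genes had one, 8.83% higher and 14.4% lower. In 12 members the 2 species did not overlap, 7 higher and 5 lower with C. tropicalis, against 45.9% of all genes, 23.4% higher and 22.4% lower, and the median log2 fold change was 0.03 against 0.04 over all genes. The members' counts lie near or below these shares of all genes. The log2 fold change of C. tropicalis over C. albicans was -1.57 ± 0.29 for Slc2a3, -0.89 ± 0.16 for Pfkfb3 (adjusted p = 0.0646 for each) and -0.60 ± 0.13 for Mxi1 (adjusted p = 0.0658). It was 0.73 ± 0.19 for Pgk1 (adjusted p = 0.0740) and 0.54 ± 0.22 for Ldha (adjusted p = 0.192). Bnip3, a receptor for the removal of mitochondria, stood at 14.3 and 13.9 CPM in C. tropicalis colon, against 8.94, 7.93 and 9.02 CPM in C. albicans colon (log2 0.71 ± 0.26, adjusted p = 0.142), while the controls at 7.71, 14.8 and 10.4 CPM spanned both. Slc2a3, Pfkfb3 and Mxi1 passed without C. albicans 1, control 1 or control 3 and, with Pgk1, in a fit of these 2 groups alone; DESeq2 called these 4 and Hif1a.

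The order of the libraries by Slc2a3 was close to their order by smooth muscle signal. The library with the most smooth muscle signal, C. albicans 2 at 27845 CPM, had the highest Slc2a3, and the one with the least, C. tropicalis 1 at 3771 CPM, had the lowest. Among the controls, marker sums of 12952, 10739 and 6631 CPM went with Slc2a3 levels of 6.28, 5.84 and 5.22 CPM. Once that score entered the fit, the log2 fold change of Slc2a3 was -0.69 between the species (adjusted p = 0.800), -0.38 for C. tropicalis against control and 0.31 for C. albicans against control. For Pfkfb3, Mxi1 and Pgk1 the species difference with the covariate was -0.70, -0.42 and 0.65, and for Bnip3 0.43. For P4ha1 the value with the covariate was 1.12 for C. tropicalis against control (adjusted p = 0.279) and 0.78 for C. albicans against control (adjusted p = 0.272), and for Hif1a it was 0.83 (adjusted p = 0.239) and 0.61 (adjusted p = 0.201). The muscle score and the group cannot be fully told apart in 8 libraries, and the part of smooth muscle in these differences was not tested.

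**Figure D4:**
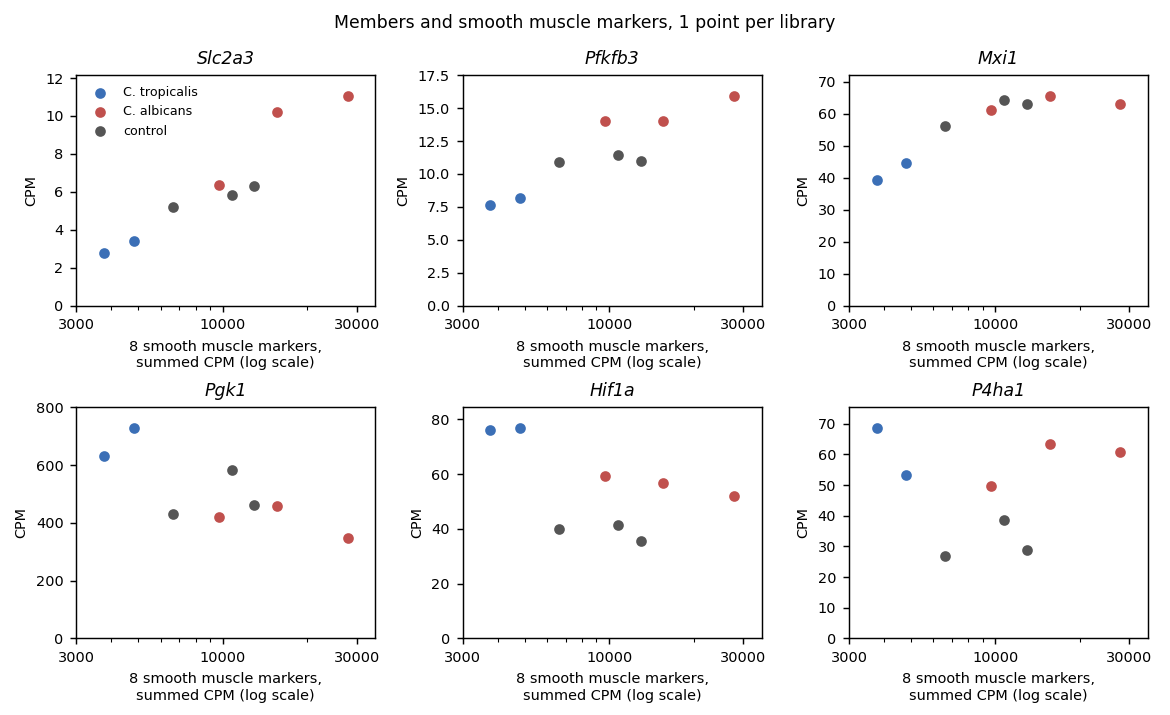
Level of 6 members in CPM (linear axis) against the summed CPM of 8 smooth muscle markers (log axis), 1 point per library, coloured by group. Slc2a3 extends from 2.80 CPM in the library with the lowest muscle sum to 11.1 CPM in that with the highest; each group has only 2 or 3 libraries, and the part of muscle was not tested.

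The wider pathway was read from 5 lists of 81 further genes, of which 78 were tested; none passed the threshold in any comparison by edgeR. With C. albicans 10 of the 78 had an unadjusted p under 0.05, 6 above control and 4 below, where 15.4% of all genes had one. With C. tropicalis 13 had one, 4 above and 9 below, where 15.4% of all genes had one. Between the species it was 21, 4 higher and 17 lower with C. tropicalis, where 23.2% of all genes had one, 8.83% higher and 14.4% lower. All 3 counts lie near these shares. The list of other HIF targets had 16 of 21 genes above control with C. albicans (median log2 0.25), where 48.2% of all genes were above. With C. tropicalis 5 of 21 were above (median -0.29), where 47.9% of all genes were. Pyruvate oxidation genes had medians of 0.01 and -0.04, and HIF targets of the gut barrier 0.06 and -0.37, in the same order.

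A few of these genes stood out by their p. Siah2, a ubiquitin ligase that removes prolyl hydroxylases, stood at 43.3 and 25.7 CPM in C. tropicalis colon, at 40.1, 59.2 and 51.8 CPM in C. albicans colon and at 15.4, 19.5 and 20.7 CPM in control colon. Its log2 fold change was 0.90 ± 0.25 with C. tropicalis (adjusted p = 0.208), 0.48 without C. tropicalis 1 (adjusted p = 0.806), and 1.44 ± 0.23 with C. albicans (adjusted p = 0.0711). Bhlhe40, a hypoxia-induced repressor that is also part of the circadian clock, stood at 244 and 208 CPM in C. tropicalis colon, at 251, 241 and 219 CPM in C. albicans colon and at 120.3, 147 and 141 CPM in control colon. Its adjusted p was 0.137 with C. tropicalis and 0.0914 with C. albicans. DESeq2 called Bhlhe40 with both species and Siah2 with C. albicans. Of the differences given in the next paragraph, each in the comparison named there, it called all but that of Angptl4 with C. albicans.

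Angptl4, an inhibitor of lipoprotein lipase that HIF and PPAR factors induce, stood at 0.514 and 0.680 CPM in C. tropicalis colon, at 1.24, 1.73 and 0.915 CPM in C. albicans colon and at 4.06, 2.08 and 4.63 CPM in control colon. The log2 fold change was -2.57 with C. tropicalis (adjusted p = 0.135) and -1.46 with C. albicans (adjusted p = 0.203). Ddit4, a stress-induced brake on mTORC1, stood at 130.2, 99.2 and 125 CPM in C. albicans colon, against 153, 176 and 178 CPM in control colon (log2 -0.52, adjusted p = 0.203). Pdp1, the phosphatase that reactivates pyruvate dehydrogenase and so opposes Pdk1, stood at 21.9 and 16.9 CPM in C. tropicalis colon, 10.9, 11.0 and 9.94 CPM in C. albicans colon and 8.80, 9.53 and 9.68 CPM in control colon. Its log2 fold change was 1.05 against control (adjusted p = 0.109) and 0.87 against C. albicans (adjusted p = 0.0646). Stc2, which encodes a secreted glycoprotein, stood at 4.40 and 5.38 CPM in C. tropicalis colon, at 17.8, 34.4 and 30.3 CPM in C. albicans colon and at 28.7, 18.6 and 6.56 CPM in control colon. Stc2 and the enzyme genes Eno2 and Pfkm, known as the neuronal enolase and the muscle phosphofructokinase, stood lower with C. tropicalis than with C. albicans (log2 -2.49, -1.27 and -0.63, adjusted p from 0.0669 to 0.0697). With the smooth muscle covariate those 3 values were -0.45, -0.15 and -0.16.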

How the data were processed

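Counts per Ensembl gene were deposited as whole numbers, with no normalization, for 8 libraries of colon RNA. The submitters' processing notes name mm10, DESeq 1.18.0, TopHat2 2.0.12 and HTSeq, the last with a version written as 6.1. Not given in the sources used here were which annotation release, filters and strand setting applied and how multi-mapped reads, which bear on genes with processed copies, were treated. The kit, NEBNext Ultra RNA per the labels' protocols, does not mark strand.

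Symbols, positions and merged exon lengths came from GENCODE M21, in which 52489 of 52636 identifiers were found; the other 147 held 0.00317% of counts. Sequences are RefSeq promoters of GRCm38.p6. Total counts ran from 16195376 to 19761098. Libraries of one group never agreed within sampling noise (chi-square per degree of freedom 19.3 to 73.5), so all 8 were kept.

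All genes were tested in one edgeR 4.0.16 fit in R 4.3.3 (TMM, filterByExpr, quasi-likelihood F-test) with 16107 genes tested, 5 residual degrees of freedom and Benjamini-Hochberg adjustment over all of them. Standard errors are the log2 fold change divided by the square root of F. Counts were simulated for 16107 genes, 100 of them changed 2-fold. The fit found 12% of simulated 2-fold changes and 71% of 4-fold ones with C. tropicalis. It found 38% and 79% with C. albicans, and 36% and 75% between species. In the same order it also called 5, 12 and 8 unchanged genes. Alternatives were DESeq2 1.42.0, limma-voom 3.58.1, other size factors and filters, a minimum fold of 1.5, a fit of 2 groups, the replicate number as a block, a smooth muscle score as a covariate, and each library left out. The members, lists and rules were chosen with earlier results of these data known. Fold changes with their errors are given for members with an unadjusted p under 0.05 in that comparison. Levels are given for these and for 8 members fixed by name, and of the other pathway genes up to 4 per comparison are named by smallest p. Promoters were searched at the first listed start, over 250 bases. Figures were drawn with matplotlib 3.10.9 in Python 3.11.15.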

Additional observations from a re-analysis of the deposited data

How the results depend on the processing

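The 26 member results with an unadjusted p under 0.05 kept their direction in all 468 values under 18 alternatives, and 34 of these values passed the threshold. The 26 were chosen by their p in these same libraries, so a kept direction is no separate support. Counts of members called moved most. With C. albicans, with C. tropicalis and between the species, DESeq2 called 4, 3 and 5 members against 0 each, and no filter on low counts called 1, 2 and 4. A fit of the 2 groups compared called 4 between the species. Leaving out 1 library gave 0 to 1, 0 to 1 and 0 to 3 members. The median log2 fold change then ran from 0.11 to 0.33, from 0.17 to 0.40 and from -0.06 to 0.12. The cause was not tested.

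Genes called in all, 7, 5 and 0 in the main analysis, numbered 461, 393 and 1737 with DESeq2, 119, 71 and 1127 with no filter, and 4, 1 and 0 with a minimum fold of 1.5. Only the 2 groups gave 8, 0 and 858, the covariate 11, 0 and 0, and leaving out 1 library 0 to 254, 0 to 192 and 0 to 1315. The replicate number as a block gave 0 genes and 0 members in each comparison, with smallest adjusted p of a member of 0.322, 0.229 and 0.133. Libraries that share a number had correlated deviations from -0.392 to 0.156, not all above 0.1, so the numbers were not taken as pairs, and not every library correlated best with its own number. With 2 C. tropicalis libraries, leaving out 1 assumes that the other varies like the remaining groups. With this depth and spread the simulated fit missed most 2-fold changes, and most member differences were smaller than that.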
